A study of Mus musculus with 6 samples.

Results

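H3K9me3 was lost after PHF8 knockdown at 769 regions beside the start sites of protein-coding genes, out of 3538 regions lost anywhere and 70705 regions in all on chromosomes 1 to 19 (21.7% of the lost regions). These regions were chosen by measured values: overlapping or touching peaks of the 4 libraries were joined into regions, and a region was kept when both control libraries had a peak in it, neither knockdown library had one, and its nearest edge was no more than 3 kb from a transcription start site of a protein-coding gene. The presence and absence of the peaks is therefore a description and not a finding. All of what follows is a description of called peaks, with no test, since 2 libraries per condition were selected on and none were left over. A region without a peak fell below the calling threshold and may still have held reads.

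The study asked how the histone demethylase PHF8 acts in mouse neural stem cells (NSCs), cells of the fetal C57BL/6J cerebral cortex that divide in culture and can form neurons and glia. Control cells (shCTR) carried a lentivirus with a scrambled shRNA, and knockdown cells (shPHF8) carried a lentivirus with an shRNA against PHF8. Both had gone through infection and puromycin selection, both grew with EGF and FGF, and the labels name no other allele. H3K9me3 was mapped by chromatin immunoprecipitation and sequencing with 2 libraries per condition and 1 input per condition, and the inputs had no peak list here. Each condition rested on 1 shRNA, and nothing stated that the 2 libraries of a condition came from separate cultures. The peak lists carry no measure of Phf8 RNA or of NSC marker genes, so neither the knockdown nor the cell type was checked here, and a mark lost in fewer cells cannot be told apart from less of the mark in every cell.

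H3K9me3, the trimethylated form of lysine 9 on histone H3, is placed by enzymes such as SETDB1 and SUV39H1 and is bound by HP1 proteins. It is best known from compact chromatin, where it covers repeats, clusters of zinc finger genes and genes of other lineages that stay silent. PHF8 belongs to the KDM7 family, binds H3K4me3 at active promoters through its PHD finger and is known for removing lower methylation states of H3K9 and the H4K20me1 mark. A CpG-rich start site, in which the dinucleotide CG is not depleted as it is in most of the genome, is typical of housekeeping and developmental genes.

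RefSeq promoters were at hand for 611 of the 796 genes near the lost regions. With 1 autosome left out of this count, a lost region at 36 of these genes held the whole 250 bases before the start site inside the peaks of both shCTR libraries with no annotated exon among them. The promoters of 6 genes, picked after their values were seen, are printed here from the RefSeq promoter table (GRCm38.p6), 5′ to 3′ on the strand of the gene, with every CG dinucleotide in capitals, because they span the range from dense in CG to nearly free of it. The 250 bases of Adcy2, an adenylyl cyclase (chr13:68999542-68999791, minus strand), held 23 CG dinucleotides and those of Dock8, a guanine nucleotide exchange factor (chr19:24999279-24999528, plus strand), held 43. The neuronal RNA-binding protein gene Elavl3 (chr9:22052024-22052273, minus strand) had 20, and the growth factor gene Gdnf (chr15:7809798-7810047, plus strand) had 7. These windows end at RefSeq starts, which can differ from the GENCODE start sites used for the regions. For Gdnf the GENCODE start site is at 7810846, downstream of the printed bases. In Krt5, an epithelial keratin (chr15:101712906-101713155, minus strand), there were 2, and in the sialyltransferase gene St3gal6 (chr16:58524254-58524503, minus strand) there was 1.
Adcy2: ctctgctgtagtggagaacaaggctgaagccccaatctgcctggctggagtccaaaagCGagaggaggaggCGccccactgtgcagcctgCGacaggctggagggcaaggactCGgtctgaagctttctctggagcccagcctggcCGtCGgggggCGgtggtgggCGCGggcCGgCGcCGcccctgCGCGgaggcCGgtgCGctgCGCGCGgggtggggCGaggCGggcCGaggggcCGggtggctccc
Dock8: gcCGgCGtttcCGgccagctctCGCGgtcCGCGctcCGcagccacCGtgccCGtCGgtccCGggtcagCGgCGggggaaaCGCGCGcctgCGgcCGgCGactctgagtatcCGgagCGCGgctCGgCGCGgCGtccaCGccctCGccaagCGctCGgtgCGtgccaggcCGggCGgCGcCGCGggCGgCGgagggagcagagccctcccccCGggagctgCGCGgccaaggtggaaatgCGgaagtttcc
Elavl3: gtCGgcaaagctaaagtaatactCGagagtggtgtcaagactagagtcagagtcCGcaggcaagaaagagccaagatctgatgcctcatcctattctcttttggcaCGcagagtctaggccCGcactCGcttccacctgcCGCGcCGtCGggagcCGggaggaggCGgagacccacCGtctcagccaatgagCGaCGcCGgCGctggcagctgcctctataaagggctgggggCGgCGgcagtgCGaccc
Gdnf: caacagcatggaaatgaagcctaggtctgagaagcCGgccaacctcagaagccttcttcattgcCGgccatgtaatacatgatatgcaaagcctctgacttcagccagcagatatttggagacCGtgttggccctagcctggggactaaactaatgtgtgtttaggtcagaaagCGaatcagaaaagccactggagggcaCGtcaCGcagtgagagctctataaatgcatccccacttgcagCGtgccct
Krt5: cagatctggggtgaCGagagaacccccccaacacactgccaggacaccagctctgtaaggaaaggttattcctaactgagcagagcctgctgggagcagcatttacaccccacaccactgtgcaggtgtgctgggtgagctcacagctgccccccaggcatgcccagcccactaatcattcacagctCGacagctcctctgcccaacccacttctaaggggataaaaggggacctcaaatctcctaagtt
St3gal6: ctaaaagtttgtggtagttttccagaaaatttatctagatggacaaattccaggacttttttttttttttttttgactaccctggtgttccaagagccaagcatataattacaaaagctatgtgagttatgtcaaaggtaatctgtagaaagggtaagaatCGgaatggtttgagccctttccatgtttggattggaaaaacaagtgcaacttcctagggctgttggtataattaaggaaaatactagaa
The GC content of these windows ran from 77.6% in Dock8 and 73.2% in Adcy2 to 56% in Krt5 and 34.8% in St3gal6. Observed over expected CpG, the number of CG dinucleotides relative to that set by the C and G content, was 1.14 in Dock8, 0.713 in Adcy2, 0.845 in Elavl3, 0.434 in Gdnf, 0.105 in Krt5 and 0.139 in St3gal6.

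The region over the Adcy2 start site, 3800 bp wide, was covered over 3800 bases in both shCTR libraries, and the nearest peak of either shPHF8 library lay 68200 bp away. At Dock8 the region was 4800 bp wide with 4200 bases covered in each shCTR library, and the nearest shPHF8 peaks were 92400 and 92800 bp away in replicates 1 and 2. The Elavl3 region had 2400 and 4600 covered bases in shCTR replicates 1 and 2, with shPHF8 peaks 56400 and 18200 bp away. The regions at Adcy2 and Dock8 were thus far from any shPHF8 peak. The Gdnf region, with 3000 and 4600 covered bases, was the opposite case, since peaks of shPHF8 replicates 1 and 2 lay 400 and 200 bp from it. Krt5 had 2800 and 2400 covered bases with the nearest shPHF8 peaks 12200 and 40000 bp away, and St3gal6 had 1800 in each library with peaks 43200 and 43800 bp away.

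On chromosomes 1 to 19, shCTR replicates 1 and 2 had 53039 and 53852 called peaks that covered 156 and 159 Mb, and shPHF8 replicates 1 and 2 had 44205 and 55344 that covered 219 and 197 Mb. The median peak was 2400 bp wide in each shCTR library, 4200 bp in shPHF8 replicate 1 and 2800 bp in replicate 2. The shPHF8 libraries thus had more covered sequence, and replicate 1 had fewer and wider peaks. According to the mapping statistics of the study, shPHF8 replicate 2 had the fewest uniquely mapped reads, and the lists hold no depth of their own. The part of these library differences in the losses was not tested.

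Of the 10762 merged regions within 3 kb of a coding start site, 7.15% were lost, and of the regions elsewhere 4.62% were. Both shares also count regions without a peak of both shCTR libraries, which could not be lost, so they do not compare how often marked regions were lost. Among all regions of both shCTR libraries, near or elsewhere, 26897 had a peak of both shPHF8 libraries, 1699 of replicate 1 only, 3460 of replicate 2 only and 3538 of neither. Gained regions, with a peak of both shPHF8 and neither shCTR library, numbered 314 near coding start sites, or 2.92%. Both shCTR libraries had a peak in 6768 of the regions near a start site. In 5106 of these (75.4%) both shPHF8 libraries had one too, in 311 only replicate 1 did, in 582 only replicate 2 did, and in 769 (11.4%) neither did. Most regions with a peak of both shCTR libraries near a coding start site were thus called in every library, and the lost regions were the minority of them that both shPHF8 libraries missed. In the 893 regions that only 1 shPHF8 library kept, its peaks covered between 400 and 12800 bases, with a median of 2600, and at most 600 bases in 7 of them.

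The number of lost regions depended on single libraries. When shCTR replicate 1 was left out it was 1705, and when shCTR replicate 2 was left out it was 1399. Leaving out shPHF8 replicate 1 gave 1094 regions, and leaving out its replicate 2 gave 1334. Dropping a library widens the rule by construction, since fewer lists have to meet it. With equal numbers of the widest peaks in each library, a setting chosen after seeing the data, 545 regions were lost, and 444 of the 769 overlapped one of them.

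**Figure D1:**
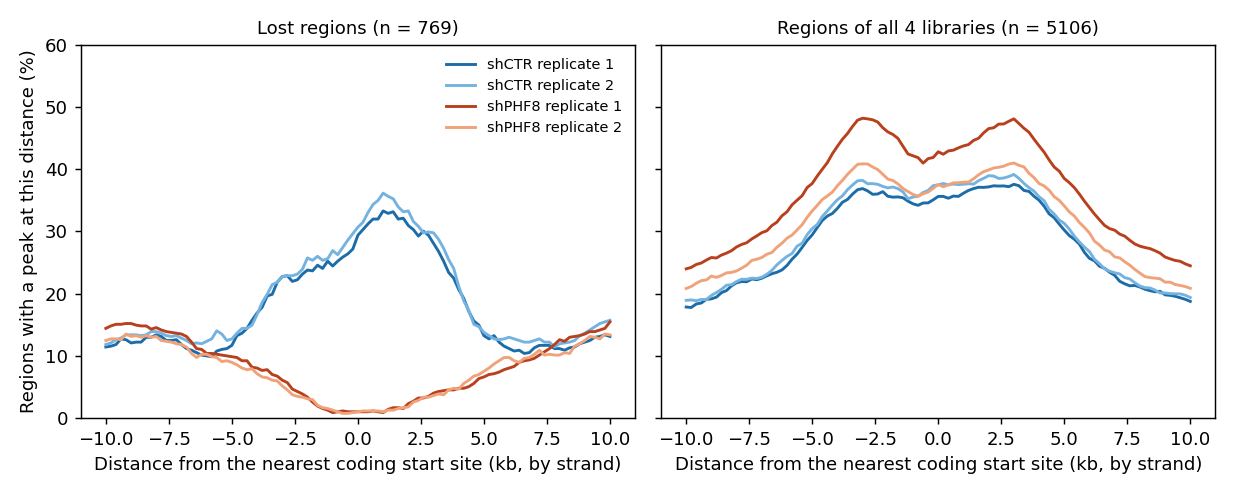
Share of regions with a called H3K9me3 peak (vertical axis, %) by distance from the nearest coding start site (horizontal axis, kb, positive downstream) for the 769 lost regions and for the 5106 regions of all 4 libraries, with 1 line per library. At the lost regions both shCTR lines peak just downstream of the start site and both shPHF8 lines dip to about 1%, which the choice of regions sets, while 10 kb away all 4 lines lie between 11.4 and 15.7%.

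The plot of peak cover by distance shows where the lost mark had been. At the start site itself, 29.4 and 30.7% of the lost regions had a peak in shCTR replicates 1 and 2, and 1 kb downstream 33.3 and 36.2% had one. In shPHF8 replicates 1 and 2 the start site lay in a peak in 1.04% each, from peaks outside the lost region. At 10 kb upstream the shares were 11.4 and 11.8% in shCTR, and 14.4 and 12.5% with shPHF8. At 10 kb downstream they were 13.1 and 15.7%, and 15.5 and 13.4% with shPHF8. The conditions thus lay close to each other at that distance, although the shPHF8 libraries covered more sequence over chromosomes 1 to 19. At the regions of all 4 libraries, 35.6 and 37.5% had the start site in a peak of shCTR replicates 1 and 2, and 42.8 and 37.5% did with shPHF8.

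The lost regions were 600 to 9200 bp wide, with a median of 2400 bp and quartiles of 1800 and 3200 bp. Peaks of shCTR replicate 1 covered 400 to 7600 bases of a region (median 1800), and those of shCTR replicate 2 covered 400 to 7200 (median 2000). Bases covered by both ran from 400 to 6200, with a median of 1400. The 2 control libraries rarely gave the same peak: in 61 regions (7.93%) the bases shared by both made up at least 90% of the width, and in 580 (75.4%) at least 50%. For comparison, the regions near a start site in all 4 libraries had a median width of 6000 bp, and the gained regions there one of 4600 bp. These classes differ by construction. Regions of all 4 libraries join the peaks of 4 lists, and the median peak was 4200 and 2800 bp wide in shPHF8 replicates 1 and 2 against 2400 bp in each shCTR library. A wide region is also more likely to meet a shPHF8 peak and so not to be lost. The part of this in the widths was not tested.

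**Figure D2:**
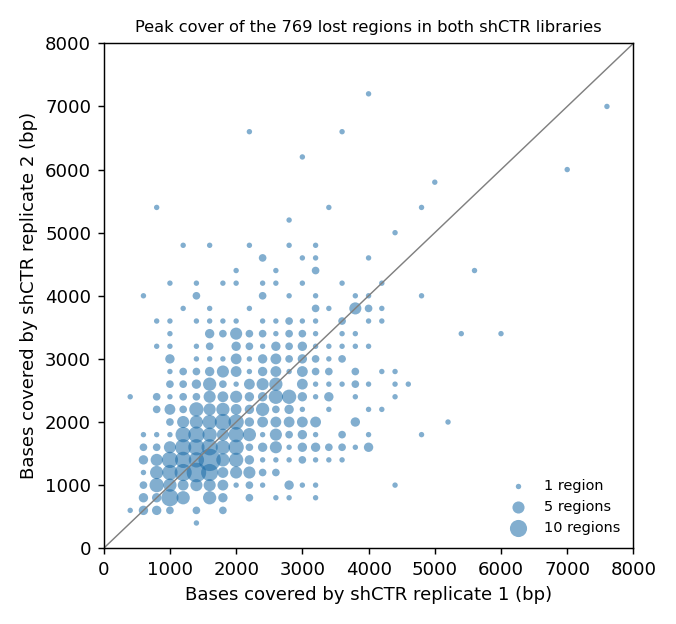
Bases of each lost region covered by peaks of shCTR replicate 1 (horizontal axis, bp) and of shCTR replicate 2 (vertical axis, bp), with the area of a point set by the number of regions and the diagonal marking equal cover. Most of the 769 regions lie below 3000 bp in both libraries, with medians of 1800 and 2000, and scatter to both sides of the diagonal.

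A start site lay inside 268 of the lost regions (34.9%, 95% Wilson interval 31.6 to 38.3%, which covers counting error over regions only), and in 190 of them (24.7% of all) a start site was covered by both shCTR libraries. The other 501 lay beside the nearest start site, 289 downstream and 212 upstream, at a median distance of 1361 bp. The limit of 3 kb was met narrowly by Vcl, encoding the adhesion protein vinculin, at 2998 bp, by Abr, a regulator of small GTPases, at 2995 bp and by the growth factor receptor gene Egfr at 2971 bp. Just outside it were regions at Lrrc58 (3012 bp), the centrosomal gene Tacc1 (3013 bp) and the zinc finger gene Zfp648 (3014 bp). In shCTR replicates 1 and 2 the Egfr region had 2600 and 4400 covered bases, and that of Tacc1 had 1400 and 3000. No gap in distance separated the regions on either side of the limit.

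An annotated start of a transcript need not be the start of its gene. The 5′ end of a coding gene was no more than 3 kb from 470 of the lost regions (61.1%), and the other 299 were near start sites of shorter or alternative transcripts only. An exon was overlapped by 442 (57.5%), 224 (29.1%) lay within introns and 103 (13.4%) overlapped no gene. Among lost regions elsewhere, 17.0% overlapped an exon and 45.0% no gene, and among the regions of all 4 libraries near a start site 74.3% overlapped an exon. These last regions had a median width of 6000 bp against 2400 bp, and a wider region has more chances to overlap an exon. The lost regions near start sites were spread over all 19 autosomes, from 4.71% of the regions near coding start sites on chromosome 17 to 9.32% on chromosome 3.

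The distance to the nearest shPHF8 peak was measured from each lost region. It ran from 200 bp to 1063200 bp in shPHF8 replicate 1 (median 12400) and from 200 bp to 1006400 bp in replicate 2 (median 10600). A peak of at least 1 shPHF8 library lay within 1 kb of 39 regions (5.07%), within 5 kb of 271 (35.2%) and within 10 kb of 411 (53.4%). No shPHF8 peak of either library was called within 10 kb of 358 regions (46.6%), and none within 50 kb of 80 (10.4%). A gained region lay within 10 kb of 15 lost regions and within 50 kb of 74 (9.62%). Some lost regions thus lay beside a shPHF8 peak, and others had none called nearby. A nearby shPHF8 peak may also have been called in shCTR, so these distances cannot tell a moved mark from a lost one. Neither the distances to shPHF8 peaks nor those to gained regions are given here for other regions, so no share is called high or low.

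Over the 10 kb to each side of a lost region, the mean cover by peaks was 1939 and 2094 bases in shCTR replicates 1 and 2, beside 1980 and 1854 bases for shPHF8 replicates 1 and 2. The conditions overlapped in these flanks. The rule leaves out any region that a shPHF8 peak reaches, which lowers shPHF8 cover right beside the lost regions. Over chromosomes 1 to 19 the shPHF8 libraries covered more, 219 and 197 Mb against 156 and 159 Mb, so equal cover here is not a neutral baseline. Around the regions of all 4 libraries the flanks held 2446 and 2556 bases in shCTR, and 3056 and 2734 with shPHF8, and around the gained regions near start sites 1319 and 1357 in shCTR and 2555 and 2308 in shPHF8, so both shPHF8 libraries were above both shCTR libraries there. In flanks of 50 kb the lost regions had 10236 and 10782 bases in shCTR, and both shPHF8 libraries were above these with 12254 and 10987.

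The base content of the regions played no part in their choice. The lost regions near start sites had a median GC content of 47.7% (quartiles 43.7 and 51.9%), against 44.2% for lost regions elsewhere, 46.4% for gained regions near start sites, 46.6% for the regions of all 4 libraries near start sites and 47.1% for the 751 of these that were no wider than 3200 bp, the upper quartile of the lost regions. Median observed over expected CpG was 0.245 at the lost regions near start sites, with an upper quartile of 0.392. In the other classes, in the same order, the medians were 0.181, 0.221, 0.234 and 0.227. Soft-masked bases, which mark repeats, made up a median of 19.5% of the lost regions near start sites and between 24.1 and 25.5% in the other classes. The medians differed by less than the distance between the quartiles within a class, and the highest upper quartile of CpG was that of the lost regions near start sites. Those over a start site had a median GC content of 51.1% and 13.4% soft-masked bases, and those beside one 46.0 and 25.5%.

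**Figure D3:**
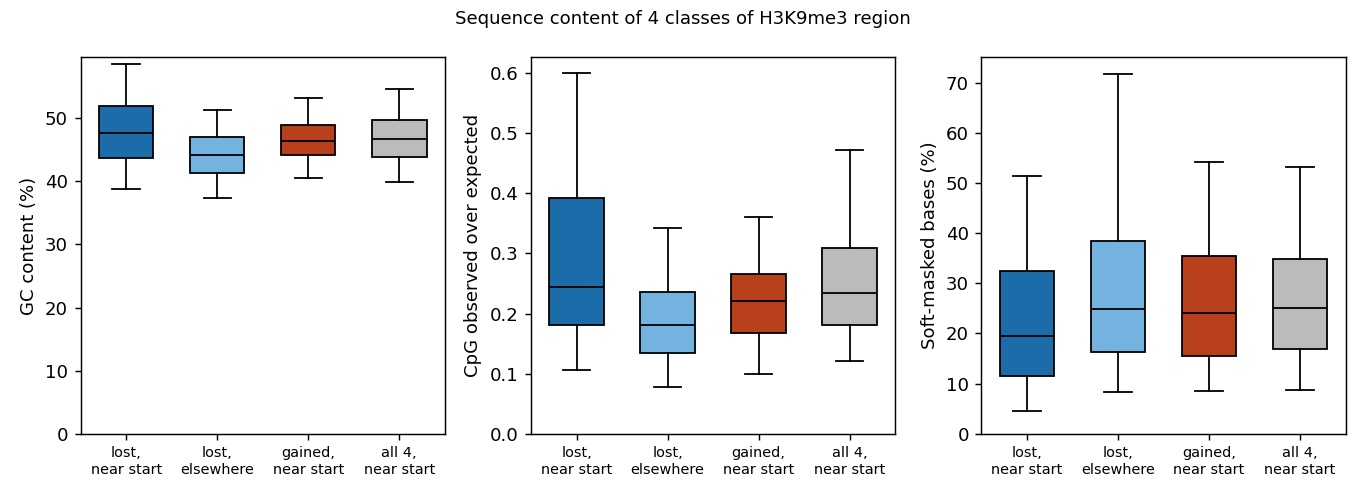
GC content (%), observed over expected CpG and soft-masked bases (%) of regions lost near coding start sites, lost elsewhere, gained near start sites and present in all 4 libraries near start sites, as boxes from the lower to the upper quartile with the median as a line and whiskers from the 5th to the 95th percentile. The boxes overlap throughout, and the lost regions near start sites have the highest upper quartile of CpG (0.392).

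A start site was called CpG-rich when the 500 bases to each side had a GC content above 50% and observed over expected CpG above 0.6. The nearest start site was CpG-rich for 315 of the 769 lost regions (41.0%), for 11.8% of the gained regions, for 30.6% of the regions of all 4 libraries, for 30.4% of the narrower of these and for 38.0% of all 90262 coding start sites. The share depended on which start sites lay nearby. Among the 470 lost regions within 3 kb of the 5′ end of a gene it was 58.7%, and among the other 299 it was 13.0%. For the gene 5′ ends themselves, 296 of the 470 lost regions (63.0%) lay near a CpG-rich one, against 33 of 153 gained regions (21.6%), 50.9% of regions of all 4 libraries, 58.6% of the narrower of these and 45.7% of all genes. In both measures the share was higher at lost than at gained regions. The nearest to it was that of all start sites in the first measure and that of the narrower regions of all 4 libraries in the second. These shares were not tested.

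The 10 widest lost regions included several where the 2 shCTR libraries covered different stretches. The widest, 9200 bp on chromosome 6 from 29181201 to 29190400, lay 1617 bp upstream of Prrt4, with 4000 and 7200 covered bases in shCTR replicates 1 and 2 and 2000 in both. Ptn, which encodes the secreted growth factor pleiotrophin, had the region with the most bases in both libraries: 7600 and 7000 covered bases and 6200 shared, 1979 bp downstream of its start, with shPHF8 peaks 13600 and 15000 bp away. At Mtx2, a mitochondrial import gene, 7000 and 6000 bases were covered and the nearest shPHF8 peaks were 19400 and 1200 bp away. Cplx2, encoding the vesicle release regulator complexin, had 4200 and 3600 covered bases with only 600 shared. At Gfm1, a mitochondrial elongation factor gene, 3600 and 6600 bases were covered, and the region included a start site in the peaks of both libraries. The other regions of the 10 were at Mtss1l, Dpy19l1, Zfp608, the small GTPase gene Rab1a and 4930452B06Rik, and were 6200 to 7600 bp wide.

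Among the lost regions with a start site in the peaks of both shCTR libraries, the 10 with the most shared bases were at Arid3a, Adcy2, Ppp4r1, Hook1, Sema4b, Shisal1, Dock8, Cfap20, Lars2 and Slc6a15, with 3200 to 3800 bases shared. Hook1, which encodes a microtubule adaptor, had 3800 covered bases in each shCTR library over 3 start sites and shPHF8 peaks 12400 and 8600 bp away. The DNA-binding protein gene Arid3a had 4000 and 4600 covered bases, with shPHF8 peaks 3800 and 3600 bp away. Slc6a15, a neutral amino acid transporter of neurons, had 3200 and 3800 covered bases over 4 start sites, and the nearest shPHF8 peaks were 98800 and 329000 bp away. Distance to the nearest shPHF8 peak thus varied widely among regions of similar cover.

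**Figure D4:**
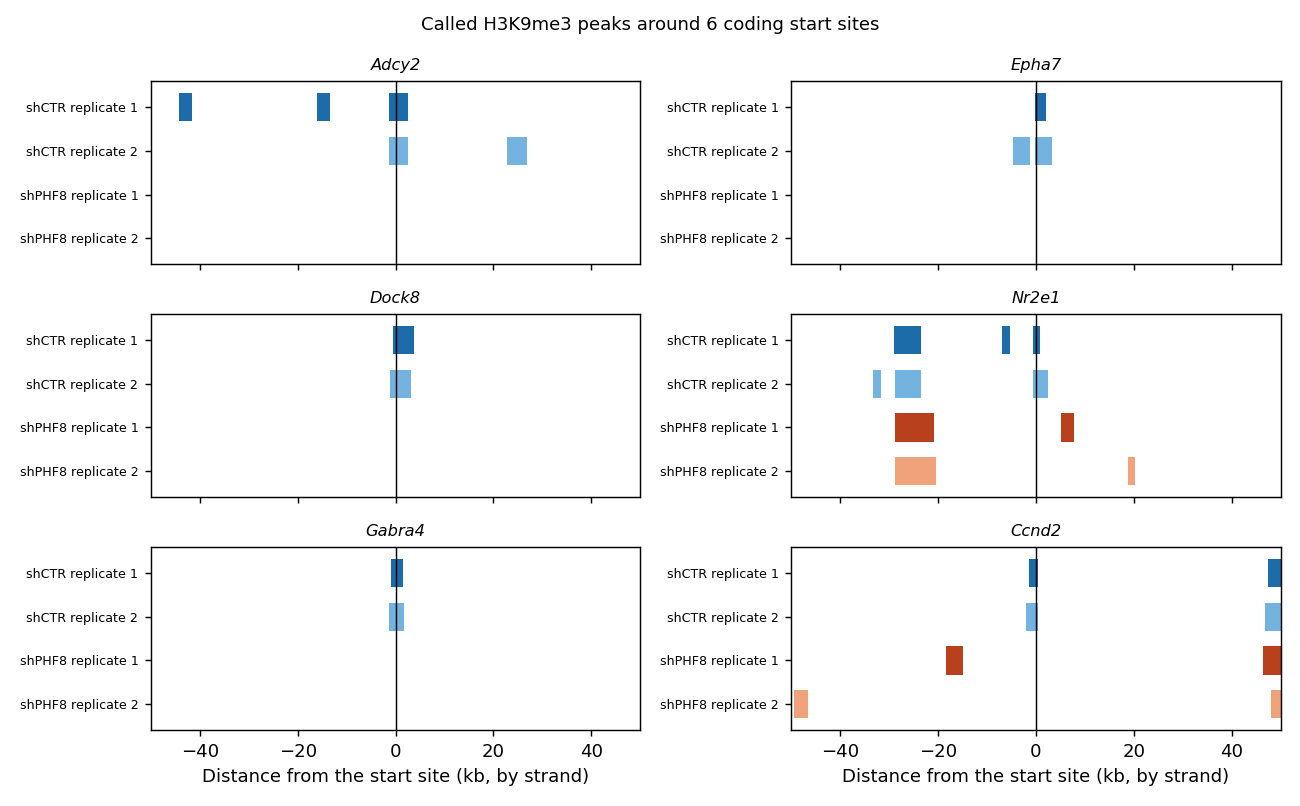
Called H3K9me3 peaks of the 4 libraries (rows) by distance from a start site in the lost region (horizontal axis, kb, positive downstream) at Adcy2, Dock8, Gabra4, Epha7, Nr2e1 and Ccnd2, with that start site as a vertical line. At Epha7 it is an alternative start site and not the 5′ end of the gene. Each gene has a peak of both shCTR libraries at the start site and none of either shPHF8 library there, and around Adcy2, Dock8, Gabra4 and Epha7 no shPHF8 peak lies within 50 kb.

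The 769 regions lay near start sites of 796 coding genes, 3.83% of the 20780 coding genes on chromosomes 1 to 19. At the 5′ end of the gene it was 508 genes, or 2.44%. Of the 5831 genes with a region of both shCTR libraries near a start site, the 796 made up 13.7%. The genes with a lost region had a median length of 39468 bp and a median of 5 start sites, against 17629 bp and 3 start sites over all coding genes, and a gene with more start sites has more chances to be counted. The genes were read in 18 lists beside these shares, and the part of gene length and start site number in the list counts was not tested.

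**Figure D5:**
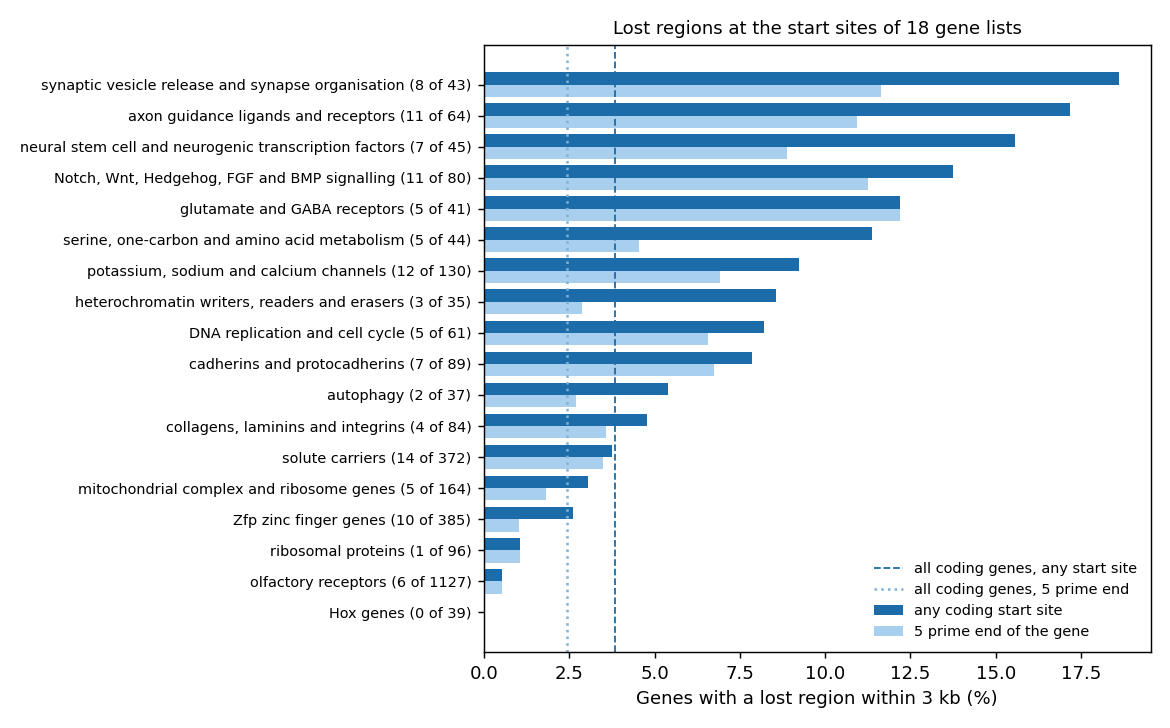
Share of the genes of 18 lists with a lost region within 3 kb (horizontal axis, %) of any coding start site (dark bars) and of the 5′ end of the gene (light bars), with the shares over all coding genes as dashed (3.83%) and dotted (2.44%) lines and the counts beside each name. Synapse genes have the longest dark bar, at 18.6%, and the solute carriers, mitochondrial genes, Zfp genes, ribosomal proteins, olfactory receptors and Hox genes lie under the dashed line.

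Of 44 genes of serine, one-carbon and amino acid metabolism, 5 had a lost region (11.4%), among them Bcat1, Mthfd1, Mthfd1l and Slc7a11. At the 5′ end of the gene it was 2 genes. Phgdh, Psat1 and Psph, the 3 enzymes of serine synthesis, were not among the genes with a lost region. Only 18 of the 44 genes had a region of both shCTR libraries near a start site. Whether these 3 enzymes had such a region to lose is not given here. Bcat1, which transfers the amino group of branched-chain amino acids, had a region on chromosome 6 from 145068001 to 145074200 1984 bp downstream of its start, with 4800 and 5400 covered bases in shCTR replicates 1 and 2 and the nearest shPHF8 peaks 28600 and 8200 bp away. Slc7a11, the cystine and glutamate exchanger, had 3800 covered bases in each shCTR library 805 bp downstream of its start, with shPHF8 peaks 31000 and 46000 bp away. At Mthfd1l, a mitochondrial folate enzyme gene, 2600 and 1600 bases were covered near an internal start site.

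Over the whole of these genes with 3 kb on each side the picture was mixed. Bcat1 had 24000 and 21200 covered bases in shCTR replicates 1 and 2, against 10200 and 12400 for shPHF8 replicates 1 and 2. For Slc7a11 the values were 22000 and 23600 against 20800 and 18200, and for Mthfd1l they were 68000 and 78000 against 72200 and 57000, where the conditions overlapped.

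Of 45 transcription factor genes of neural stem cells and neurogenesis, 7 had a lost region (15.6%): Cux1, Hes5, Myt1l, Nr2e1, Pou3f2, Tcf4 and Zeb2. At the 5′ end of the gene it was 4 genes (8.89%). The genes of this list were short, with a median length of 5869 bp and 3 start sites. Nr2e1, also called Tlx, a nuclear receptor that keeps neural stem cells dividing, had 1600 and 3200 covered bases over 2 start sites on chromosome 10 from 42577801 to 42581000, with shPHF8 peaks 2600 and 16200 bp away. Zeb2, a repressor active in cortical development, had 1400 and 1800 covered bases over an internal start site, with shPHF8 peaks 18600 and 18200 bp away. The region at Cux1, a factor of upper cortical layers, had 3600 and 1600 covered bases 2311 bp upstream of the gene, and that of Tcf4, a partner of proneural factors, had 2000 and 3600. Over the whole gene with its flanks, Zeb2 had 9000 and 14200 covered bases in shCTR against 4600 and 5000 with shPHF8, while Cux1 had 3490 and 6090 against 7000 and 6200.

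Synapse genes had the highest share of the lists when any start site was counted, and at the 5′ end of the gene the receptor genes described next had a higher one, 12.2% against 11.6%. Of 43 genes of synaptic vesicle release and synapse organisation, 8 had a lost region (18.6%), among them Cplx2, Dlg2, Dlg4, Homer2, Nlgn1, Shank2 and Syt2, with 5 at the 5′ end of the gene. Their median length was 94363 bp with 6 start sites. Dlg4, which encodes the scaffold PSD-95, had 2800 and 1800 covered bases over an alternative start site, and its nearest shPHF8 peaks were 35400 bp away in both libraries. Dlg2, encoding a related scaffold, had 4000 and 3600 covered bases with shPHF8 peaks 12200 bp away in both. Shank2 and Homer2, a pair of postsynaptic scaffold genes, had 3800 bases in each library, and 3800 and 2400, with shPHF8 peaks between 1200 and 3600 bp away. Losses at these last genes lay close to shPHF8 peaks. Across the gene and its flanks, Shank2 had 51273 and 51473 covered bases in shCTR against 88673 and 75673 with shPHF8, higher in both knockdown libraries in spite of the lost region.

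Of 41 genes of glutamate and GABA receptors, 5 had a lost region (12.2%), all within 3 kb of the 5′ end of the gene: Gabra4, Gabrb1, Grid1, Grin2a and Grm8. Gabra4 and Gabrb1, subunits of the GABA-A receptor, start next to each other in opposite directions and shared 1 region on chromosome 5 from 71656201 to 71659200, so they are not separate events. That region had 2400 and 3000 covered bases over 6 start sites, and the nearest shPHF8 peaks were 260400 and 259200 bp away. Grin2a, an NMDA receptor subunit, had 1600 and 1400 covered bases over an alternative start site with shPHF8 peaks 8800 and 15800 bp away. Grid1, a glutamate receptor of the delta type, had 3400 and 3800, with shPHF8 peaks 4000 and 13000 bp away.

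Axon guidance genes followed, with 11 of 64 (17.2%): Efna3, Epha10, Epha7, Ephb3, Nrp2, Ntn1, Sema4b, Sema5b, Sema6d, Slit1 and Unc5b, 7 of them within 3 kb of the 5′ end of the gene. They included ligands and receptors of the ephrin, semaphorin, netrin and Slit systems, and their list had a median length of 111815 bp. Epha7, an ephrin receptor, had 2400 and 3600 covered bases over an alternative start site on chromosome 4 from 28815201 to 28818800. The nearest shPHF8 peaks were 638000 and 208200 bp away. Sema4b, a semaphorin, had 4000 covered bases in each library over 2 start sites, with peaks 4600 and 4400 bp away. Epha10 and Sema6d had 2000 and 3000, and 3000 and 1800, with shPHF8 peaks as near as 1200 bp. Sites with no shPHF8 peak nearby and sites close to one were thus both found in this list.

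Of 80 genes in a hand-written list of Notch, Wnt, Hedgehog, FGF and BMP signalling, 11 had a lost region (13.8%): Apc, Bmp6, Fgf15, Fzd10, Fzd2, Lef1, Nog, Ptch1, Smad6, Smad7 and Wnt10a. The list does not hold every gene of these pathways, and Bmp3, Dvl2, Fgf10 and Wnt6, which are not in it, also had a lost region. Wnt10a, a Wnt ligand, had 2400 and 4200 covered bases over its start site, and Fzd10, a Wnt receptor, had 2200 and 3400. Lef1, the factor that acts at the end of the Wnt pathway, had 2200 and 4800, and Apc, a part of the complex that degrades beta-catenin, had 2600 and 2800. The nearest shPHF8 peaks of these 4 genes were all within 6000 bp, at 1200 bp for Apc. The list also held antagonists, among them the BMP inhibitor gene Nog and the inhibitory Smad6 and Smad7, so ligands, receptors and inhibitors were all represented.

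Of 61 genes of DNA replication and the cell cycle, 5 had a lost region (8.20%): Ccnd2, Cdk6, Mcm10, Rb1 and Rfc1. Ccnd2, cyclin D2, had 1800 and 2400 covered bases over its start site on chromosome 6 from 127151801 to 127154200, with shPHF8 peaks 12800 and 44600 bp away. Its kinase partner Cdk6 had 800 and 1200 covered bases over the start site, with peaks 5000 and 5600 bp away, and the replication factor gene Mcm10 had 800 in each library, with peaks 56800 and 56600 bp away. Rb1, the retinoblastoma gene, had 1000 and 2000 near an internal start site. In shCTR replicate 1 these 4 genes were at or under the median cover of all lost regions, and in shCTR replicate 2 Ccnd2 was above it.

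Of 35 genes of heterochromatin writers, readers and erasers, 3 had a lost region (8.57%), 1 of them at the 5′ end of the gene. Ehmt1 and Ehmt2, the paired H3K9 methyltransferases GLP and G9a, had 2400 bases in each library, and 1600 and 1000, with the nearest shPHF8 peaks 104200 and 102600 bp away, and 62600 and 67200 bp away. The region at Ehmt2 was 1469 bp upstream of its start and also lay near C2 and Zbtb12. It held 2 start sites, neither of them of Ehmt2, so it cannot be assigned to Ehmt2 alone. Smchd1, which acts in silencing the inactive X chromosome, had 2000 and 1600 over an internal start site, with peaks 30800 and 16400 bp away. Of 37 autophagy genes 2 had a lost region (5.41%): Rb1cc1, a part of the initiating kinase complex, with 1000 bases in each library, and Rptor, a subunit of mTORC1, with 600 and 1200 and the region near its 5′ end.

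The other lists were read by symbol. Channels of potassium, sodium and calcium had 12 of 130 (9.23%), cadherins and protocadherins 7 of 89 (7.87%), and collagens, laminins and integrins 4 of 84 (4.76%). Solute carriers were close to the share over all genes, with 14 of 372 (3.76%). Below it were mitochondrial complex and ribosome genes with 5 of 164 (3.05%), Zfp zinc finger genes with 10 of 385 (2.60%), ribosomal proteins with 1 of 96 (1.04%) and olfactory receptors with 6 of 1127 (0.532%). None of the 39 Hox genes had a lost region. At the 5′ end of the gene there were 4 Zfp genes and 3 mitochondrial genes.

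How much of a list could be lost depended on how much of it was marked in the control cells. All 39 Hox genes had a region of both shCTR libraries near a start site, as did 176 of the 385 Zfp genes and 65 of the 89 cadherin genes. Among genes marked in this way, 0% of Hox genes, 5.68% of Zfp genes and 10.8% of cadherin genes had a lost region, below the 13.7% over all genes. For olfactory receptors it was 8.82% of 68 marked genes, for ribosomal proteins 10% of 10 and for solute carriers 10.9% of 128. Above it were synapse genes with 42.1% of 19, axon guidance genes with 37.9% of 29, autophagy genes with 33.3% of 6, amino acid metabolism genes with 27.8% of 18, heterochromatin genes with 27.3% of 11 and receptor genes with 26.3% of 19. Replication genes had 25% of 20, transcription factor genes 23.3% of 30, signalling genes 22% of 50, mitochondrial genes 17.9% of 28, channels 17.4% of 69 and extracellular matrix genes 16.7% of 24. The order of the neural lists against the Zfp and Hox genes was thus the same whether all genes or marked genes were counted.

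For most of the 796 genes a lost region was not the only marked stretch. No shPHF8 peak lay within 3 kb of any start site of 497 genes (62.4%), and none anywhere in the gene or 3 kb either side in 270 (33.9%). The choice of the regions favours both shares, and neither is given here for all coding genes, so they are not called high or low. Peaks of both shPHF8 libraries covered fewer bases of the gene and its flanks than those of both shCTR libraries in 482 genes (60.6%), which the choice of the regions favours, and more in 64 (8.04%). A gained region lay in the gene or its flanks in 58 genes (7.29%), a share not given here for all coding genes. Adcy2 was one of these: it lost the peak at its start site, yet over the gene as a whole both shPHF8 libraries, with 44200 and 45800 covered bases, were above both shCTR libraries, with 33200 and 38000. At Dock8, by contrast, 4200 bases were covered in each shCTR library and 0 in each shPHF8 library, and at Epha7 2400 and 7000 against 0 and 0.

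There were 3 genes with 3 or more lost regions near their start sites, and 30 genes with exactly 2. Nin, which encodes the centrosomal protein ninein, had 3 on chromosome 12, with 1800 and 2600, 1400 and 2200, and 2000 and 2800 covered bases in shCTR replicates 1 and 2. Slc25a25, a mitochondrial ATP and phosphate carrier gene, had 2000 and 3000, 1000 and 3000, and 1400 and 1000. The septin gene Sept9 had 1000 in each library, 1600 and 2200, and 1800 and 2600. Over the gene and its flanks both shPHF8 libraries were below both shCTR libraries in all 3 genes, at 8400 and 7400 bases against 13600 and 16200 in Nin, 2045 and 1845 against 4400 and 7800 in Slc25a25, and 32340 and 27600 against 33000 and 34000 in Sept9.

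Promoters were searched on both strands for a few fixed motifs, from 250 bases before to 50 after the 5′ end of each gene. A lost region overlapped 158 such promoters, with a median GC content of 60.7% and observed over expected CpG of 0.624, against 55.3% and 0.540 over all coding promoters. The single site of the NFI factors (TTGGCA) was found in 25 of the 158 (15.8%) and in 13.8% of all 20807 promoters, and Elavl3 above holds one. The paired form, TTGGC and GCCAA spaced by 5 bases, was in none of the 158 and in 5 of all promoters. The NRF1 core (CGCATGCG) was in 1 of the 158 (0.633%) against 2.33%, the E2F cores (TTTCCCGC or TTTGGCGC) in 2 (1.27%) against 2.02%, the cyclic AMP element (TGACGTCA) in 1 (0.633%) against 2.43% and the ATF4 core (TGATGCAA) in 1 (0.633%) against 0.831%. The E2F core TTTGGCGC overlaps part of the NFI letters. The promoters of the 508 genes with a lost region within 3 kb of their 5′ end gave other shares. The single NFI site was in 13.0% of them, the NRF1 core in 1.77% and the E2F cores in 2.36%. The cyclic AMP element was in 2.95% and the ATF4 core in 1.18%. Of these 5 motifs, only the NRF1 core was thus on the same side of all promoters in both sets. These counts are small, and a match is a run of letters and not a bound site.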

How the data were processed

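H3K9me3 ChIP-seq libraries of mouse NSCs (2 shCTR, 2 shPHF8) were compared by their deposited peak positions. Following the study's methods, the authors aligned reads to mm10 with SOAPaligner/SOAP2 and called broad peaks with SICER2, 1 list per library. The submitters' processing notes also name Bowtie2 2.3.5.1, SAMtools 1.9 and deepTools, without roles. Window, gap, threshold and use of the input are not given in the sources used here. The lists hold no height, score or depth, so a peak is present or absent, and its absence depends on depth and threshold.

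Ends were taken as inclusive, which made widths multiples of 200 bp, and coordinates are 1-based. Peaks on chromosomes 1 to 19 were merged across libraries. Start sites were those of all transcripts of protein-coding genes in GENCODE M21 on GRCm38, the assembly named mm10, whose chromosome lengths matched. Base content was read from the GRCm38 genome. RefSeq promoters matched 611 of the 796 genes, too few for a check over the genes, so motifs were counted in the genome at GENCODE gene starts. Python 3.11.15, numpy 2.4.6 and scipy 1.17.1 were used, and merging, coverage and distances were tested on simulated peaks against bedtools 2.31.1.

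The genes named were those of the 10 widest regions, the 10 regions with a start site in both shCTR peaks and the most shared bases, up to 4 genes of each of 9 hand-written lists by shared bases, the 3 regions on each side of the 3 kb limit and genes with 3 or more regions. Other genes are named as members of a list, a few members are not reported here, and the printed promoters and the genes whose whole length is described were chosen after their values were seen. The regions and the lists were chosen with earlier results of these data known. Alternatives were other start sites, windows, merging, overlap and peak widths, the X and Y chromosomes and each library left out.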

Additional observations from a re-analysis of the deposited data

How the results depend on the processing

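No paired analysis was possible because the results come from no test. The 769 regions, their median width of 2400 bp, the 34.9% over a start site, the median GC content of 47.7% and the 796 genes were recomputed under each alternative. Counting only gene 5′ ends gave 470 regions, 508 genes, 29.8% over a start site and 48.8% GC. Only transcripts annotated as coding gave 2600 bp and 48.2% GC, with 626 regions. A window of 1 kb gave 460 regions, 476 genes, 2600 bp, 58.3% and 49.3%, and one of 5 kb gave 955 regions, 28.1% and 46.8%. Merging within 1 kb gave 2600 bp and 47.5%, requiring 50% cover by each shCTR library gave 47.8%, requiring no shPHF8 peak within 5 kb gave 498 regions, 528 genes and 47.4%, peaks of at least 1000 bp gave 2600 bp and 47.5%, and adding X and Y gave 777 regions and 47.7%. With equal numbers of the widest peaks, chosen after seeing the data, there were 545 regions of median 3000 bp, 40.4% of them over a start site and 47.7% GC. Leaving out 1 library at a time gave 1094 to 1705 regions, 1113 to 1666 genes, 1800 to 2600 bp, 28.0 to 36.2% over a start site and 46.7 to 47.8% GC. Depth is not given in the lists, so a peak just under the threshold cannot be told from none.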

Other observations

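The 5 lost regions farthest from any shPHF8 peak were all over a start site covered by both shCTR libraries. Cntn4, which encodes the adhesion protein contactin 4, had 3800 and 2600 covered bases in shCTR replicates 1 and 2 over 3 start sites, and the nearest shPHF8 peaks were 1004000 and 1006400 bp away. Dpp10, a subunit that regulates potassium channels, had 3400 and 1600 covered bases, with shPHF8 peaks 1063200 and 427200 bp away. Kcnip4, a channel-interacting protein gene, had 3600 and 1400, with peaks 377600 and 510600 bp away. The organic anion transporter gene Slco4c1 had 1600 and 3400, with peaks 650000 and 402600 bp away, and 5730480H06Rik had 3400 and 3200, with peaks 404000 bp away in both. All 5 were named because of this distance, after their values were seen. In Cntn4 the nearest shPHF8 peak belonged to a gained region within the gene.

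The lost regions nearest to a shPHF8 peak were at Dcbld1, Gdnf and Zfp608, each with a peak of at least 1 shPHF8 library 200 bp from its edge.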
